A study of Mus musculus with 45 samples.

Results

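The 76 genes described here encode proteins of the cytosolic ribosome. They are the protein-coding genes of the deposited tables whose symbols have the form of a core ribosomal protein, namely Rpl or Rps with a number and at most a final a or x, together with Rplp0, Rplp1, Rplp2 and Rpsa. They make up 76 of the 35272 genes in the tables, 46 of them coding for the large (60S) subunit and 30 for the small (40S) subunit. The rule uses symbols alone and no measured value, although it was set with earlier results of these data known. The rule leaves out some proteins of the same particle, among them Fau, which encodes a fusion of a ubiquitin-like protein to a ribosomal protein, Rps3a1, and the 40S-bound scaffold protein Rack1.

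Forelimb buds were taken from CD1 mouse embryos of gestation day 13, pooled with limbs of male and female embryos together, and cultured in bottles. Cultures received 5 µM bisphenol AF (BPAF), 1 µM BPAF, or the solvent dimethyl sulfoxide (DMSO) as control, and were kept for 3, 24 or 48 h. BPAF is a fluorinated analog of bisphenol A, a monomer of plastics. Each of the 9 groups held 5 libraries made from poly-A selected RNA. All groups share the strain, the stage and the culture medium, and no sample was taken before culture. Limbs in a bottle were pooled. Because the labels give no separate litters or days for the replicates, the p-values speak for the spread among these libraries only, which may be technical in part. The label titles name BPAF, but the protocol spells out bisphenol A. A treatment label of 1 µM 3 h replicate 5 names 10 µM BPA, while its title places it at 1 µM BPAF, so counts, medians and shares that use this library are also given without it.

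Each ribosome carries one copy of nearly every one of these proteins, which is why cells keep their amounts matched to each other and to ribosomal RNA. In mammals the mRNAs of ribosomal proteins begin with a C followed by a run of pyrimidines, the 5′ terminal oligopyrimidine (TOP) motif, through which mTORC1 and Larp1 control their translation. Control of that kind acts on ribosome loading and can leave mRNA levels as they are, and mRNA level is what was measured here. In mouse embryos, mutation of Rpl38 causes the tail short phenotype with axial skeleton defects, mutation of Rpl24 the belly spot and tail phenotype, and in humans mutations of RPS19, RPL5, RPL11, RPL35A, RPL26 and others cause Diamond-Blackfan anaemia, in which thumb defects are frequent.

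The sequences at the starts of these genes are shown because the TOP motif is the feature these mRNAs are known for. RefSeq start sites on GRCm38.p6 were matched for 56 of the 76 genes. Each line below is the strand of the gene from 25 bases before the start to 15 bases from it onward, 5′ to 3′, and capitals mark the longest unbroken run of C and T in that window.
Rpl7a: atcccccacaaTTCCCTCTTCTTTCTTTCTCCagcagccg
Rpl14: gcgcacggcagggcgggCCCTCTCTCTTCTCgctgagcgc
Rpl28: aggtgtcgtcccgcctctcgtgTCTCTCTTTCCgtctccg
Rps6: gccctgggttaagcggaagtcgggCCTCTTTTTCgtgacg
Rpl38: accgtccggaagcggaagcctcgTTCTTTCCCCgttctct
Rps2: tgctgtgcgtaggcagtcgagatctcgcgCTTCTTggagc
Rpl35a: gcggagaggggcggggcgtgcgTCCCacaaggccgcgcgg
Rpl26: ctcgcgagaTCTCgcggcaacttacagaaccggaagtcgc
In the order printed the windows lie at chr2:26910782-26910821 (+), chr9:120571492-120571531 (+), chr7:4792940-4792979 (+), chr4:86857353-86857392 (−), chr11:114668555-114668594 (+), chr17:24720038-24720077 (+), chr16:33056428-33056467 (+) and chr11:68901541-68901580 (+). A run of at least 8 bases of C or T on the gene's strand was found in 25 of the 56 windows (44.6%), against 16.6% of the 32851 promoter windows of the same length in the table. The median longest run was 7 bases in ribosomal protein genes and 5 bases over all windows. These runs could lie anywhere in the window, and in some genes, among them Rpl5 and Rpl39, the run lay wholly before the start. The share of windows with a run is therefore not a share of genes with a TOP motif. Rpl26 and Rpl35a had runs of 4 bases in this window, which says only that these letters are not there.

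The cultures expressed the genes of cartilage throughout. All 17 chondrocyte markers were detected, and their summed level in control cultures averaged 5725 ± 202 CPM (counts scaled to library size) at 3 h, 13982 ± 949 at 24 h and 23020 ± 1894 at 48 h (SD, n = 5 each). Library totals ranged from 14901842 to 25154115 reads with a median of 17820524. At that depth the lowest count in any library was 19 reads for Rpl24, 84 for Rps10 and 242 for Rpl26, while the other genes had at least 802. CPM values are scaled with the TMM factors of edgeR. In bulk tissue, fewer cells of a type and less RNA per cell cannot be told apart.

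All 76 genes were detected in every library, and the scarcest of them, Rpl24, still had 1576 reads over all libraries together. Per kilobase of the principal transcript their mean levels had a median of 662 CPM, with quartiles of 421 and 931, and medians of 610 for large-subunit and 701 for small-subunit genes. Rplp0, the scaffold of the ribosomal stalk that holds the P1 and P2 proteins, was the most abundant at 1588 CPM per kilobase. Rps14, a protein of the 40S platform, followed at 1542 (Rps14 and Rps26 are named after their values were seen), Rps26, which lines the mRNA exit channel, at 1451, and Rps15, at the head of the 40S subunit, at 1424. On the same per-transcript scale the lowest levels were 2.87 for Rpl24, 13.3 for Rps10 and 61.1 for Rpl13a.

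The 3 lowest genes share a feature of the annotation. In GENCODE mouse release M21, 71.5% of the exon bases of Rpl24 lie in another annotated gene on the same strand, Gm28037, and so do 70.8% of those of Rps10, in the readthrough gene RPS10-NUDT3, and 59.3% of those of Rpl13a, in Gm45713. Only 1 other ribosomal protein gene had any such overlap, Rpl19 at 10.7%, with a miRNA gene. How reads in shared exons were counted is not given in the sources used here, so the levels of Rpl24, Rps10 and Rpl13a are uncertain and cannot be compared with those of other ribosomal protein genes.

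**Figure D1:**
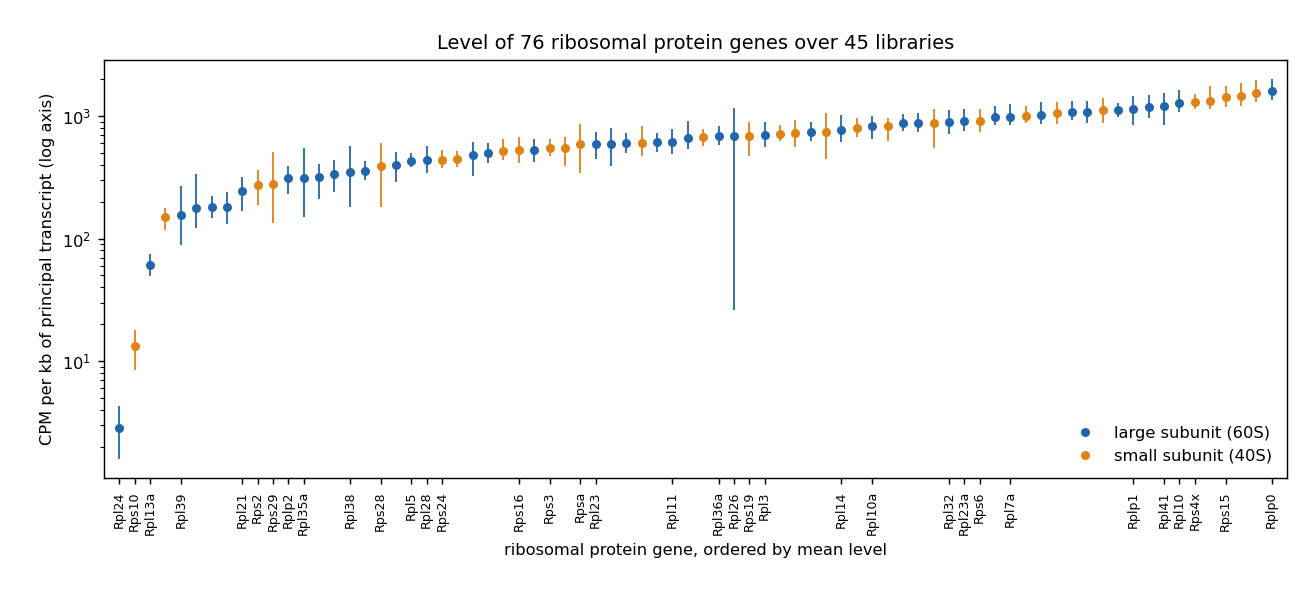
Mean level of each of the 76 ribosomal protein genes over 45 libraries (points), in CPM per kilobase of the principal transcript on a log axis, with a line from the lowest to the highest library and colour for the subunit (names are printed for 35 of the genes). The middle 50% of genes lie between the quartiles of 421 and 931, Rpl24, Rps10 and Rpl13a lie far below, and Rpl26 has the longest line.

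The per-library values of Rplp0 at 3 and 48 h are given as an example of an abundant gene. Not all abundant genes were alike, since Rpsa, with a mean of 1136 CPM, had an SD between replicates of 0.32 on the log2 scale. At 3 h Rplp0 had 1997, 1904, 1976, 2111 and 2115 CPM with 5 µM BPAF, 1905, 2026, 1956, 2349 and 2367 CPM with 1 µM BPAF, and 2021, 1968, 2020, 2450 and 2114 CPM in control cultures. At 48 h it had 2328, 2409, 2728, 2203 and 2339 CPM with 5 µM BPAF, 2317, 2063, 2193, 2299 and 2120 CPM with 1 µM BPAF, and 1948, 2441, 2450, 2143 and 2447 CPM in control cultures. The groups overlapped at both times. At 24 h 5 µM replicate 5 had 2542 CPM of Rplp0, the highest of its group. Across the 76 genes, the SD between replicates of a group had a median of 0.136 on the log2 scale and was under 0.2 for 62 of them, from 0.0935 for Rpl4 to 0.90 for Rpl26. The means of the 9 groups spanned a median of only 0.24 on the log2 scale per gene, and under 0.5 for 71 of the 76.

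The 76 genes together took between 3.91% and 5.31% of the reads of a library. That maximum belongs to the library with the conflicting label, and without it the highest share was 5.14%. They held 4.46% ± 0.234 of reads with 5 µM BPAF, 4.82% ± 0.372 with 1 µM BPAF and 4.71% ± 0.230 in control cultures at 3 h (SD, n = 5 each). Without the library with the conflicting label the 1 µM share at 3 h was 4.70% ± 0.293 (SD, n = 4), with 5.07% as its highest. At 24 h they held 4.33% ± 0.473 with 5 µM BPAF, 4.32% ± 0.161 with 1 µM BPAF and 4.33% ± 0.233 in control cultures. At 48 h they were 4.28% ± 0.264 with 5 µM BPAF, 4.14% ± 0.201 with 1 µM BPAF and 4.47% ± 0.314 in control cultures. Libraries of the 3 doses overlapped at every time, and the ratio of large-subunit to small-subunit reads averaged between 1.47 and 1.51 in all 9 groups.

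**Figure D2:**
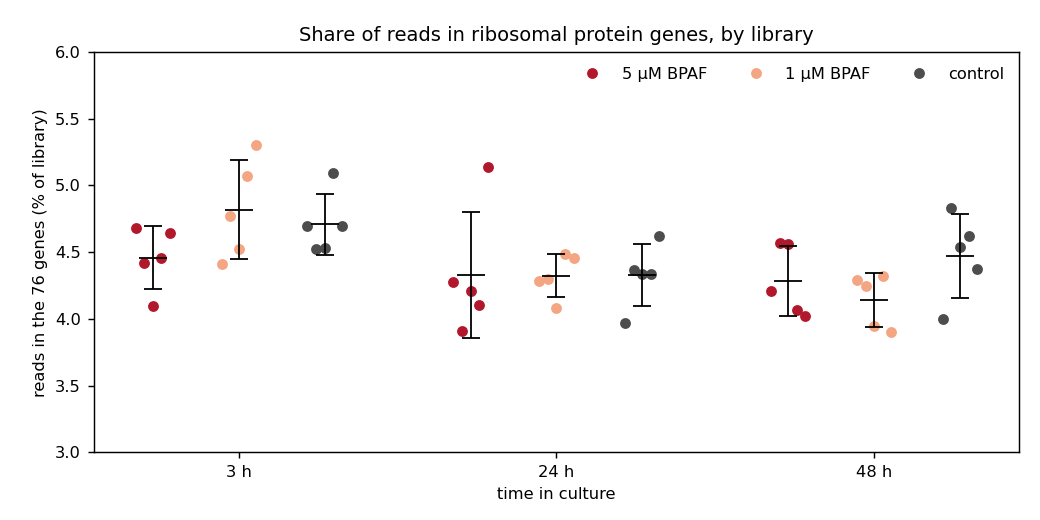
Share of each library's reads in the 76 ribosomal protein genes, in percent, by time and dose, with a point per library and the mean ± SD of 5 libraries as a bar (the axis begins at 3%). The doses overlap at every time. The highest points are the 1 µM 3 h library with the conflicting label at 5.31% and a 5 µM 24 h library at 5.14%.

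Within a group the genes moved together from library to library. In 14 of the 45 libraries at least 60 of the 76 lay above their group mean, and in another 14 at most 16 did, so the 76 are not independent measurements of a condition. The library farthest above its group was 5 µM 24 h replicate 5, in which 74 of 76 were above the group mean and the average member was higher by 0.27 on the log2 scale. In that library haemoglobin transcripts were also at their highest for the group, at 0.253% of reads. The lowest were 5 µM 3 h replicate 3 with an average of -0.18 and 5 genes above the mean, and control 48 h replicate 1 with -0.18 and 3 genes above. Library 1 µM 3 h replicate 5, the one with the conflicting label, had 75 of 76 above its group mean and an average of 0.18. Medians and calls of several comparisons that use these libraries are therefore also given without them.

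The 9 genes with coding sequences under 300 bases, a limit set after values were seen, varied more than the rest. Their median SD between replicates was 0.21 on the log2 scale, against 0.13 for the other 67. They are Rpl37, Rpl37a, Rpl38, Rpl39, Rpl41, Rps21, Rps27, Rps28 and Rps29, all coding for small basic proteins. In 5 µM 3 h replicate 3 they averaged -0.59 from their group means on the log2 scale, while the other 67 averaged -0.13. Length and level go together among these genes, and their parts in the spread were not tested.

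Culture with 5 µM BPAF for 3 h was compared with control first, to ask whether the ribosome's own protein genes respond early. None of the 76 passed the test at this dose and time (edgeR quasi-likelihood F-test, Benjamini-Hochberg adjusted p under 0.05), against 0.18% of the 16651 genes tested. At an unadjusted p under 0.05 there were 21, all lower. Of all genes tested 8.55% were at that level, and 3.99% at that level and lower. DESeq2 called 1 and limma-voom 0. The fitted log2 fold changes of the 76 had a median of -0.11, against 0.00 over all genes tested, and 71 were negative. The mean of the 76 genes had an SD of 0.107 between replicate libraries on the same scale. Without 5 µM 3 h replicate 3, the treated library lowest in these genes, the median was -0.07. For 72 of the 76 the 95% interval lay within a 1.5-fold change either way.

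The gene nearest to the threshold was Rplp1, which encodes the acidic stalk protein P1 that helps recruit translation factors. It had 564.8, 456.3, 425.0, 503.4 and 519.4 CPM with 5 µM BPAF at 3 h, against 616.1, 569.5, 577.3, 570.0 and 606.5 CPM in control cultures. All 5 treated libraries lay below all 5 control libraries. The log2 fold change was -0.25 ± 0.06 (SE), with an edgeR adjusted p of 0.120, and DESeq2 was the tool that called it, at an adjusted p of 0.0125. In the authors' deposited table Rplp1 is likewise the only member called in this comparison, with a log2 fold change of -0.25 and an adjusted p of 0.0106. Without 5 µM 3 h replicate 1 the edgeR adjusted p was 0.0219 for Rplp1 and 0.0294 for Rpl39, and these 2 were then called. The same 2 were called when no filter on low counts was applied, at 0.0401 for Rplp1 and 0.0327 for Rpl39.

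Rpl39, a very small protein of the peptide exit tunnel, had 101.0, 77.5, 54.7, 77.6 and 83.5 CPM with 5 µM BPAF at 3 h, against 99.2, 98.96, 96.9, 99.7 and 108.8 CPM in control cultures. Only 5 µM replicate 1 reached the control range, and the fold change was -0.35 ± 0.10 with an edgeR adjusted p of 0.252. Rps10, a 40S protein near the mRNA entrance and one of the 3 genes with shared exons, had 6.72, 8.10, 6.99, 5.90 and 6.65 CPM with 5 µM BPAF, against 9.48, 9.71, 10.7, 8.85 and 8.15 CPM in control cultures. The treated Rps10 libraries again lay below all control libraries, by -0.44 ± 0.12 on the log2 scale, without passing the test (edgeR adjusted p = 0.213). Rps29 stood at -0.37 ± 0.15 and Rpl26 at -0.50 ± 0.47, and on the other side Rpsa, the laminin receptor homolog at the back of the 40S subunit, stood at 0.23 ± 0.13 and Rpl35a at 0.06 ± 0.22. For the 9 short genes together the median was -0.22, against -0.10 for the other 67, and the short genes were also those that were low in replicate 3.

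Of the 14 anchor genes, Rplp1 and Rpsa at 3 h are given above and Rpl24 is given below, and several others follow here. Rpl38, which in mouse embryos is needed for translation of Hox mRNAs, had 147.5, 115.1, 66.2, 105.8 and 127.1 CPM with 5 µM BPAF, against 136.0, 110.7, 129.8, 138.3 and 139.3 CPM in control cultures. The Rpl38 groups overlapped, and its 95% interval ran from -0.49 to 0.06 on the log2 scale. Rpl5 and Rpl11, which with 5S ribosomal RNA bind Mdm2 when ribosome assembly fails, stood at -0.07 ± 0.05 and -0.14 ± 0.06. Rps6, the substrate of S6 kinase, stood at -0.03 ± 0.07, and Rps19, needed to mature the RNA of the small subunit, at -0.17 ± 0.08. Rps24, a 40S protein mutated in some human Diamond-Blackfan anaemia, stood at -0.05 ± 0.06, and Rps4x, an X-linked 40S protein, at -0.07 ± 0.05. Rpl23a, a 60S protein at the tunnel exit that is not an anchor gene, stood at 0.04 ± 0.05. None of these passed the edgeR test.

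At 24 h the 76 genes were level between 5 µM BPAF and control. None passed the test with edgeR, DESeq2 or limma-voom, and none had an unadjusted p under 0.05, while 1.57% of the 16433 genes tested were called and 11.6% had an unadjusted p under 0.05. The median fold change was -0.00 on the log2 scale, and for 73 of the 76 the 95% interval lay within 1.5-fold. Without replicate 5 of the treated group, the library in which nearly all members were high, the median was -0.07 and there were still no calls. Rpl21, another 60S protein, had the smallest adjusted p, and its 495.9, 375.4, 540.8, 382.8 and 476.4 CPM with 5 µM BPAF stood against 327.7, 424.6, 428.9, 391.2 and 403.6 CPM in control cultures. The Rpl21 groups overlapped, with a fold change of 0.21 ± 0.10 and an edgeR adjusted p of 0.451. The short 40S gene Rps28 stood at 0.14 ± 0.10, and Rpl10a at -0.09 ± 0.09. At 48 h Rps3, a 40S protein at the mRNA entrance, stood at 0.06 ± 0.07, and none of these 3 passed the edgeR test either.

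At 48 h with 5 µM BPAF against control 0 of 76 passed the edgeR test, while 7.16% of the 16345 genes tested did, and DESeq2 and limma-voom called 0 as well. Of the 12 with an unadjusted p under 0.05, 11 were lower and 1 was higher. Of all genes tested 19.3% were at that level, 10.6% lower and 8.72% higher. The median of the 76 was -0.09 on the log2 scale, with 68 negative, and 72 had intervals within 1.5-fold. Leaving out 1 library at a time gave medians from -0.14, without control 48 h replicate 1, to -0.06, without 5 µM 48 h replicate 4 or 5 or control 48 h replicate 2. Without control 48 h replicate 1, the library that was low for most members, 3 were called, all lower and among them Rplp1, and without 5 µM 48 h replicate 4 Rpl35a was called. In the same libraries 22 of 23 tested skeletal muscle markers were lower, with a summed level of 3859 ± 342 CPM with 5 µM BPAF and 7811 ± 1519 CPM in control cultures (SD, n = 5 each), and 9 of 15 macrophage markers were lower. No marker of either list was at 0 in any group, and the part of such cells in the values of the ribosomal protein genes was not tested.

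The lowest value of the 48 h comparison belonged to Rpl35a, a 60S protein needed to mature large-subunit RNA. It had 80.5, 151.3, 183.8, 210.0 and 146.3 CPM with 5 µM BPAF and 162.5, 159.5, 161.2, 195.6 and 166.1 CPM with 1 µM BPAF, against 209.9, 240.1, 227.0, 228.2 and 174.1 CPM in control cultures. The treated ranges overlapped the control range. The fold change was -0.51 ± 0.17 at 5 µM and -0.36 ± 0.08 at 1 µM, with edgeR adjusted p of 0.0852 and 0.890. For 5 µM the adjusted p was 0.00595 when no filter on low counts was applied and 0.0262 without 5 µM 48 h replicate 4. Rps29 stood at -0.38 ± 0.19 and Rpl39 at -0.27 ± 0.15 with 5 µM BPAF, while Rpl10, which forms part of the peptidyl transferase region, stood at 0.09 ± 0.06 and Rpl26 at 0.25 ± 0.11. None of these passed the test.

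The stalk gene Rplp1 was examined at 48 h too, since it came nearest to a call at 3 h. It had 537.0, 634.9, 635.4, 533.1 and 558.0 CPM with 5 µM BPAF and 559.8, 531.4, 523.1, 598.3 and 548.0 CPM with 1 µM BPAF, against 543.4, 673.1, 692.5, 722.0 and 637.3 CPM in control cultures. Replicate 1 of the control lay inside the treated range and the other 4 above it. The fold changes were -0.20 ± 0.08 at 5 µM and -0.25 ± 0.07 at 1 µM, with edgeR adjusted p of 0.156 and 0.998. Its partner Rplp2 stood at -0.19 ± 0.09 and -0.28 ± 0.08, and the stalk base Rplp0 at 0.05 ± 0.07 with 5 µM BPAF.

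With 1 µM BPAF none of the 76 passed the edgeR test at any time, and neither DESeq2 nor limma-voom called one. Hardly any gene was called at this dose, namely 0% of genes tested at 3 h, 0.00608% at 24 h and 0% at 48 h. At 3 h 2 of the 76 had an unadjusted p under 0.05, Rpsa at 0.36 ± 0.14 and Rps10 at -0.33 ± 0.12, where 2.55% of all genes tested did, and the median was 0.02. Without the library with the conflicting label that median was -0.02, 3 had an unadjusted p under 0.05 (1 higher and 2 lower), and there were still no calls. At 24 h none of the 76 had an unadjusted p under 0.05, where 2.67% of all genes tested did, and the median was -0.00. At 48 h 34 of the 76 had an unadjusted p under 0.05, all lower, where 3.77% of all genes tested did and 2.54% did and were lower. The median was -0.13, with 74 negative, and it was -0.17 without control 48 h replicate 1. All of these comparisons at 48 h share the same 5 control libraries with the 5 µM comparison, and in the control group replicate 1 lay low for nearly all 76 genes while the others lay around or above the mean.

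The short genes stood lowest at 1 µM and 48 h. Rpl39 had 77.2, 98.05, 74.3, 105.8 and 69.7 CPM with 1 µM BPAF, against 94.2, 136.6, 130.1, 163.7 and 83.2 CPM in control cultures, and the groups overlapped. Its fold change was -0.52 ± 0.16, with an edgeR adjusted p of 0.998. Rpl38 had 94.9, 132.6, 90.1, 135.2 and 96.7 CPM with 1 µM BPAF, against 128.3, 155.1, 140.6, 206.6 and 111.5 CPM in control cultures, and its fold change was -0.43 ± 0.15 with an adjusted p of 0.998 by the same test. The median over the 9 short genes was -0.36, against -0.12 for the other 67.

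The doses were also set against each other, since a response that grows with dose would separate them. None of the 76 passed the edgeR test with 5 µM against 1 µM BPAF at 3, 24 or 48 h, while 0.036%, 1.19% and 5.96% of genes tested did. At 3 h 27 had an unadjusted p under 0.05, all lower (5.93% of all genes tested, of which the lower ones were 3.01%), and all 76 values were negative with a median of -0.13. Leaving out 1 µM 3 h replicate 5, the library with the conflicting label, 4 had an unadjusted p under 0.05, the median was -0.08 and no gene was called. At 24 h none had an unadjusted p under 0.05, against 9.69% of all genes tested, and the median was -0.00. Without 5 µM 24 h replicate 5 that median was -0.06. At 48 h 6 did, all higher (18.1% of all genes tested, of which the higher ones were 8.65%), and the median was 0.05. DESeq2 called 1 gene at 48 h and none at the other times, and limma-voom called none. Without 5 µM 48 h replicate 5, edgeR called 1 gene at 48 h, Rpl41, the shortest member.

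The gene called by DESeq2 was Rpl10, an X-linked 60S protein that completes the large subunit before it enters translation. It had 1047, 1158, 1183, 1044 and 1029 CPM with 5 µM BPAF at 48 h, 1016, 971.4, 958.7, 994.1 and 918.5 CPM with 1 µM BPAF, and 881.3, 1102, 1025, 1016 and 1020 CPM in control cultures. All 5 µM libraries lay above all 1 µM libraries, and both overlapped the control. The fold change of 5 µM over 1 µM was 0.15 ± 0.05, with an edgeR adjusted p of 0.124. Whether the effect of 5 µM BPAF differed between times was tested on 20 libraries for each pair of times. No member passed, against 0.336% of genes tested for 24 h minus 3 h, 0.0693% for 48 h minus 24 h and 2.8% for 48 h minus 3 h, and DESeq2 and limma-voom called none. At an unadjusted p under 0.05 there were 2 for 24 h minus 3 h, Rpl10 at 0.25 ± 0.10 and Rps10 at 0.41 ± 0.18, none for 48 h minus 24 h, and 1 for 48 h minus 3 h, Rpl10 at 0.18 ± 0.08. Of all genes tested 7.56%, 4.65% and 12.4% were at that level in these 3 tests. The median difference over the 76 was 0.13 for 24 h minus 3 h and 0.04 without 5 µM 24 h replicate 5.

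**Figure D3:**
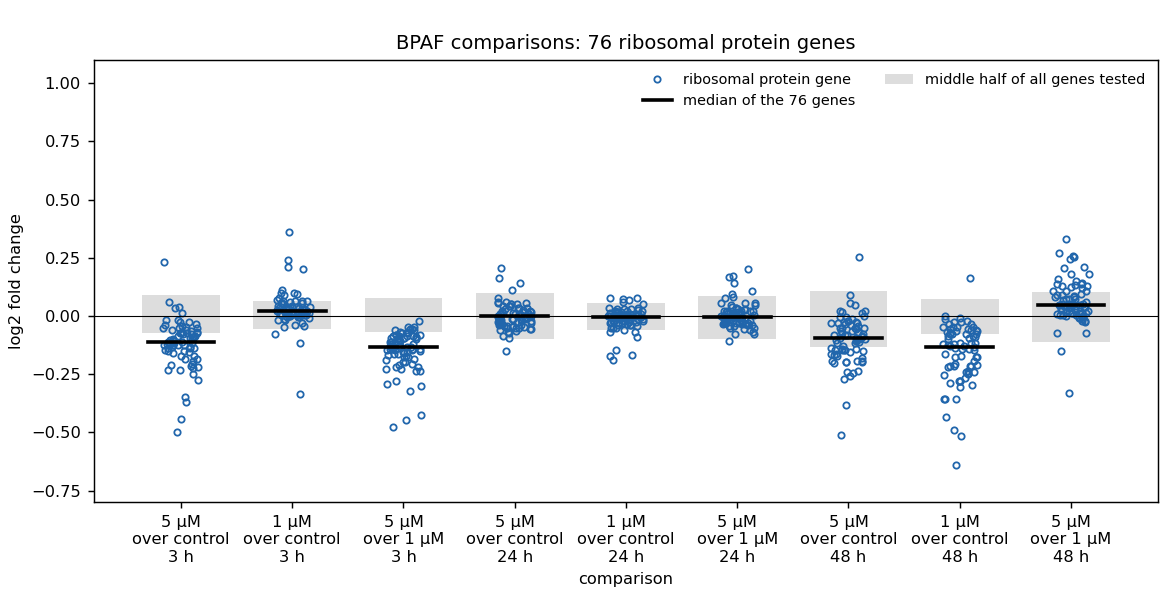
Fitted log2 fold changes of the 76 ribosomal protein genes (open circles) in the 9 dose comparisons, with their median as a black line and the middle 50% of all genes tested as a grey box. No gene passed an adjusted p under 0.05, and the medians lie between -0.13 and 0.05.

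The genes that build ribosomes were followed beside those that compose them, in lists chosen by function. With 5 µM BPAF at 3 h no gene was called among 46 ribosome biogenesis factors or 19 genes of RNA polymerase I. Nor was any among 19 translation factors and other genes with TOP mRNAs, 22 regulators of TOP mRNAs and mTORC1, or 77 mitochondrial ribosomal proteins. At 48 h 1 biogenesis factor, the rRNA acetyltransferase Nat10, was higher by 0.24 ± 0.07 (edgeR adjusted p = 0.0462), and among the TOP mRNAs Vim, the intermediate filament protein vimentin, fell by 0.27 ± 0.07 on the log2 scale (edgeR adjusted p = 0.0293). Sesn2, a leucine sensor that restrains mTORC1, rose by 0.43 ± 0.10 at 24 h and by 0.67 ± 0.10 at 48 h, with edgeR adjusted p of 0.0419 and 0.000213. Rps27l, the paralog of Rps27 and in human cells a p53 target, was the 1 of 9 tested ribosomal protein genes outside the rule that rose, by 0.26 ± 0.06 against control at 48 h (edgeR adjusted p = 0.0132) and by 0.40 ± 0.06 against 1 µM BPAF (edgeR adjusted p = 0.000727). Among mitochondrial ribosomal proteins 1 of 77 was lower at 24 h and none was called at 3 or 48 h. Of all genes tested with 5 µM BPAF against control, 0.18% were called at 3 h, 1.57% at 24 h and 7.16% at 48 h.

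Time in culture moved some of the 76 genes. Between 3 and 24 h in control cultures 11 fell and none rose, that is 11 of 76, where 37.8% of the 16481 genes tested were called, 19.1% higher and 18.7% lower. The falls were modest, from -0.17 to -0.32 on the log2 scale, and the median of all 76 was -0.10, against -0.01 over all genes. In the same interval all 16 markers of dividing cells were lower, with a summed level of 1323 ± 41 CPM at 24 h and 2460 ± 90 CPM at 3 h (SD, n = 5 each). Also lower were 10 of 11 erythroid markers, 11 of 13 endothelial markers and 9 of 12 epidermis markers. Their summed levels were 1613 ± 519, 425 ± 30.2 and 303 ± 160 CPM at 24 h, against 2692 ± 438, 582.1 ± 32.5 and 665 ± 129 CPM at 3 h. Higher were 16 of 17 chondrocyte, 21 of 23 skeletal muscle and 10 of 15 macrophage markers. No marker listed in the tables was at 0 in either group, and the part of these cell types in the values of the 76 genes was not tested. By DESeq2 14 were called and by limma-voom 13, and the authors' deposited table calls 12, all lower. Leaving out control 3 h replicate 2 gave 19 calls, and leaving out control 3 h replicate 4, control 3 h replicate 5 or control 24 h replicate 1 gave 7 each, all lower. Here and below, the share of all genes called in fits that left out a library is not given.

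Rps2, a 40S protein near the mRNA entrance channel, fell the most clearly. It had 236.0, 293.8, 255.1, 260.0 and 279.7 CPM at 24 h, against 338.7, 327.6, 284.8, 360.1 and 337.9 CPM at 3 h in control cultures. A single 24 h library reached the range of 3 h. The fold change was -0.32 ± 0.07 with an edgeR adjusted p of 0.00112. At 48 h Rps2 had 269.1, 326.2, 308.9, 336.8 and 284.1 CPM, which overlapped both earlier times.

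Rpl3, the large 60S protein beside the peptidyl transferase centre, was lower at both later times. It had 1023, 1047, 1056, 1191 and 1065 CPM at 3 h, 788.9, 877.3, 910.2, 946.6 and 971.7 CPM at 24 h, and 777.5, 922.7, 910.6, 946.5 and 805.7 CPM at 48 h. Neither later time overlapped 3 h. Rpl3 fell by 0.27 ± 0.06 on the log2 scale at 24 h and by 0.30 ± 0.06 at 48 h, with edgeR adjusted p of 0.00186 and 0.000934. In these comparisons Rpl3 and, at 24 h, Rps2 and Rpl28 passed in every alternative processing that was tried and without each library in turn. Rpl28, another 60S protein, fell by 0.21 ± 0.06 (edgeR adjusted p = 0.00609).

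The other genes that fell between 3 and 24 h belong mostly to the 60S subunit, as do 46 of the 76 genes. The median fold change was -0.11 for large-subunit and -0.09 for small-subunit genes. Rpl14 fell by 0.17 ± 0.04, Rps16 by 0.20 ± 0.06, Rpl32 by 0.19 ± 0.06, Rpl7a by 0.19 ± 0.06, Rpl41 by 0.23 ± 0.08, Rpl10a by 0.17 ± 0.06 and Rpl35, named after its value was seen, by 0.18 ± 0.07 on the log2 scale. The 11th, Rpl26, fell by 0.32 ± 0.11 (edgeR adjusted p = 0.0239). This call was lost when the reads of its copies were added, as described below, and without control 3 h replicate 4 (edgeR adjusted p = 0.0545) or replicate 5 (0.0716). It was also lost in the fit on all libraries (edgeR adjusted p = 0.599) and with the replicate block (0.0514). Of the 10 fits that left out 1 library, Rpl10a lost its call in 8, Rpl41 in 5 and Rpl7a in 2, while Rpl14, Rps16 and Rpl32 kept theirs in all 10. The call of Rpl35 was lost at least without control 3 h replicate 4 or 5 and without control 24 h replicate 1. The long pyrimidine runs printed above belong to Rpl7a, Rpl14 and Rpl28, which fell, and to Rps6 and Rpl38, which were not called in this interval, at -0.18 ± 0.08 and -0.06 ± 0.10.

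Between 24 and 48 h 2 of the 76 rose and none fell, where 9.71% of the 16445 genes tested were called higher and 6.57% lower, and the median was 0.10 against -0.01 over all genes. Leaving out 1 library at a time gave medians between 0.06 and 0.14. Rpl21 had 483.3, 455.5, 476.3, 488.8 and 515.7 CPM at 48 h, against 327.7, 424.6, 428.9, 391.2 and 403.6 CPM at 24 h. The Rpl21 groups did not overlap, and the gene rose by 0.29 ± 0.07 (edgeR adjusted p = 0.00988). At 3 h, however, Rpl21 had 328.7, 312.3, 499.3, 585.1 and 548.1 CPM, a range that covered both later times. Rpl23, a 60S protein that in human cells also binds MDM2, had 629.0, 790.6, 747.7, 730.7 and 671.6 CPM at 48 h, against 527.8, 608.3, 615.4, 618.6 and 642.3 CPM at 24 h. It rose by 0.24 ± 0.07 (edgeR adjusted p = 0.0290), with 1 library of each group inside the range of the other. The Rpl23 call was lost in 6 of the 10 fits that left out 1 library. With control 48 h replicate 1 left out 9 were called, all higher, and with control 48 h replicate 5 left out 4 were. DESeq2 called 6 and limma-voom 3. Leaving out control 24 h replicate 2 or 3, or control 48 h replicate 2, 3 or 4, gave 1 call each, and in each of these the lost gene was Rpl23.

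Over the whole course, 48 h against 3 h, 4 of the 76 rose and 4 fell, while 50.9% of the 16539 genes tested were called, 25.6% higher and 25.4% lower. The median of the 76 was 0.02, and for 74 the 95% interval lay within 1.5-fold. Without control 48 h replicate 1 that median was 0.06. Rpl35a rose most. It had 209.9, 240.1, 227.0, 228.2 and 174.1 CPM at 48 h, against 110.0, 89.6, 153.9, 87.9 and 163.1 CPM at 3 h, with no overlap. The fold change was 0.84 ± 0.15 (edgeR adjusted p = 0.000123), and the call held in every alternative tried and without each library in turn. At 24 h Rpl35a was spread over both ranges, with 201.5, 94.7, 83.7, 166.3 and 184.4 CPM. Rpl23 rose by 0.23 ± 0.07, Rps19 by 0.18 ± 0.07 and Rpl36a by 0.19 ± 0.07, while Rpl3 fell as given above, Rpl26 by 0.36 ± 0.10, Rpl10a by 0.17 ± 0.06 and Rpl7a by 0.17 ± 0.06. The call of Rpl36a was lost in 8 of the 10 fits that left out 1 library, and that of Rps19 in 7 of 10. With copies added Rps19 stood at 0.10 with an edgeR adjusted p of 0.235. Rpl7a was lost in 2 of 10, and Rpl23 and Rpl10a in 1 each. Rpl26 lost its call in the fit on all libraries (edgeR adjusted p = 0.492) and with copies added (0.128). When control 48 h replicate 1 was left out, 15 were called, 13 of them higher, and when control 48 h replicate 4 was left out, 5 were. DESeq2 called 11 and limma-voom 8.

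**Figure D4:**
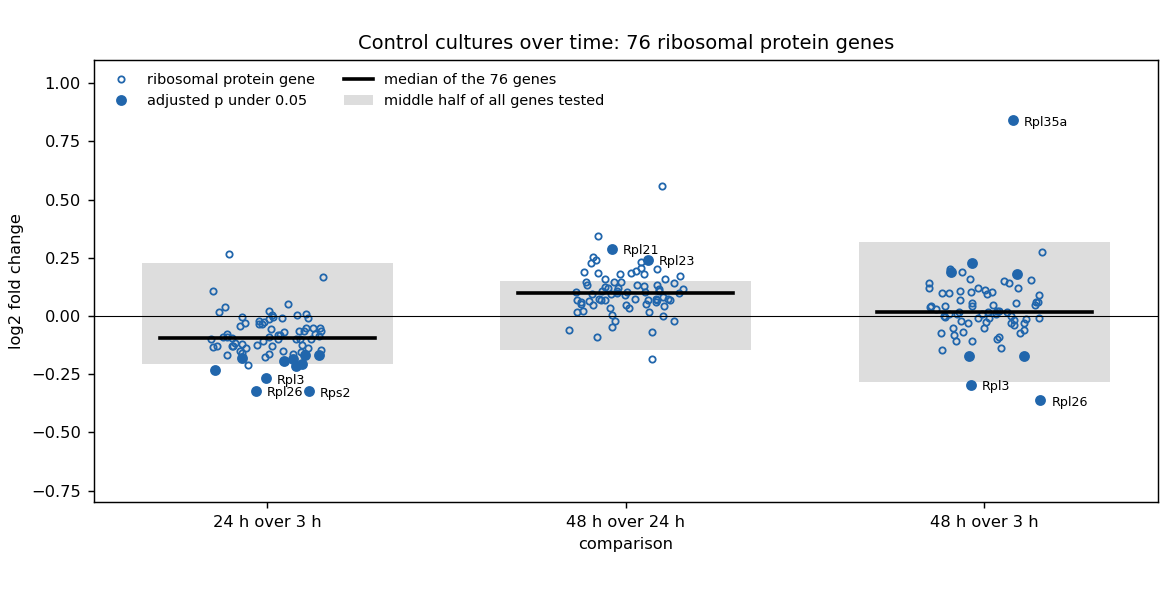
Fitted log2 fold changes of the 76 ribosomal protein genes between times in control cultures, with genes at an adjusted p under 0.05 filled, the median as a black line and the middle 50% of all genes tested as a grey box. The called genes lie below 0 at 24 h over 3 h and above 0 at 48 h over 24 h, and Rpl35a at 0.84 stands far above the others at 48 h over 3 h.

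The partner lists moved in part over the same times. Between 3 and 24 h, 6 of 46 biogenesis factors rose and 8 fell, beside 19.1% and 18.7% of all genes tested, with Gnl3 (nucleostemin) at 0.33 ± 0.07 and Ltv1, a 40S assembly factor, at 0.31 ± 0.06 on one side and Npm1 (nucleophosmin) at -0.41 ± 0.06, Tcof1 (treacle) at -0.38 ± 0.06 and the methyltransferase Fbl at -0.28 ± 0.06 on the other. Of 19 RNA polymerase I genes 2 rose and 6 fell, with the subunit Polr1c at -0.47 ± 0.06. Among the 19 translation factors and other genes with TOP mRNAs, 6 fell and none rose. These were led by the poly-A binding protein Pabpc1 at -0.44 ± 0.06 and Hnrnpa1 at -0.34 ± 0.05. Of the regulators 3 of 22 rose and 6 fell, with Mycn, a driver of ribosome synthesis, at -0.73 ± 0.09 and the mTORC1 inhibitors Sesn2 and Ddit4 at -0.91 ± 0.08 and -0.67 ± 0.15. Mitochondrial ribosomal proteins, which serve a separate ribosome, fell in 23 of 77 cases and rose in none, with a median of -0.10. Between 24 and 48 h, 1 of the 46 biogenesis factors rose and none fell, and no mitochondrial ribosomal protein gene was called. Of all genes tested 9.71% were called higher and 6.57% lower. In that interval Sesn2 rose by 0.54 ± 0.11 and Mycn fell by 0.65 ± 0.11 on the log2 scale. At 48 h over 3 h, 10 of 46 biogenesis factors were higher and 7 lower, beside 25.6% and 25.4% of all genes tested. Of the 77 mitochondrial ribosomal protein genes 2 were higher and 23 lower. Each gene named here passed the edgeR test at an adjusted p under 0.05.

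The gene that varied most between replicates was Rpl26, a 60S protein near the tunnel exit, at chr11:68901583-68906989 (+, mm10). With 5 µM BPAF at 3 h it had 13.7, 134.9, 457.1, 516.8 and 433.0 CPM, and over all libraries it ranged from 13.7 to 605 CPM. The processed pseudogene Gm15772, an intronless copy of Rpl26 at chr5:3236431-3236868 (+), is 99.5% identical to the coding sequence over 438 bases. In the same 5 libraries Gm15772 had 289.8, 209.9, 0.861, 1.91 and 51.5 CPM, so that it was high where Rpl26 was low. Their deviations from the group mean had opposite signs in 38 of the 45 libraries.

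The coding sequence and the copy differ at 2 bases, C177T and T288C, counted from the first coding base with the base of Rpl26 first. These stretches of 41 bases around each are shown because nothing else in the coding sequence separates reads of the 2 genes. Capitals mark the differing base.
Rpl26, bases 157 to 197: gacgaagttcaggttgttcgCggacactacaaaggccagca
Gm15772, same bases: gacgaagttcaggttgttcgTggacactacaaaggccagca
Rpl26, bases 268 to 308: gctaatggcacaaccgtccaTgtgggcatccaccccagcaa
Gm15772, same bases: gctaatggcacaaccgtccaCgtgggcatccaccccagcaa
Added together, the 2 genes ranged from 303 to 608 CPM. The SD between replicates was 0.90 on the log2 scale for Rpl26, 2.39 for Gm15772 and 0.20 for their sum. With the reads of copies added to each gene, the Rpl26 difference in control cultures was -0.14 at 24 h over 3 h and -0.12 at 48 h over 3 h, with edgeR adjusted p of 0.0632 and 0.128. Which of the 2 genes the reads came from was not tested, and this pair was chosen after values were seen.

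**Figure D5:**
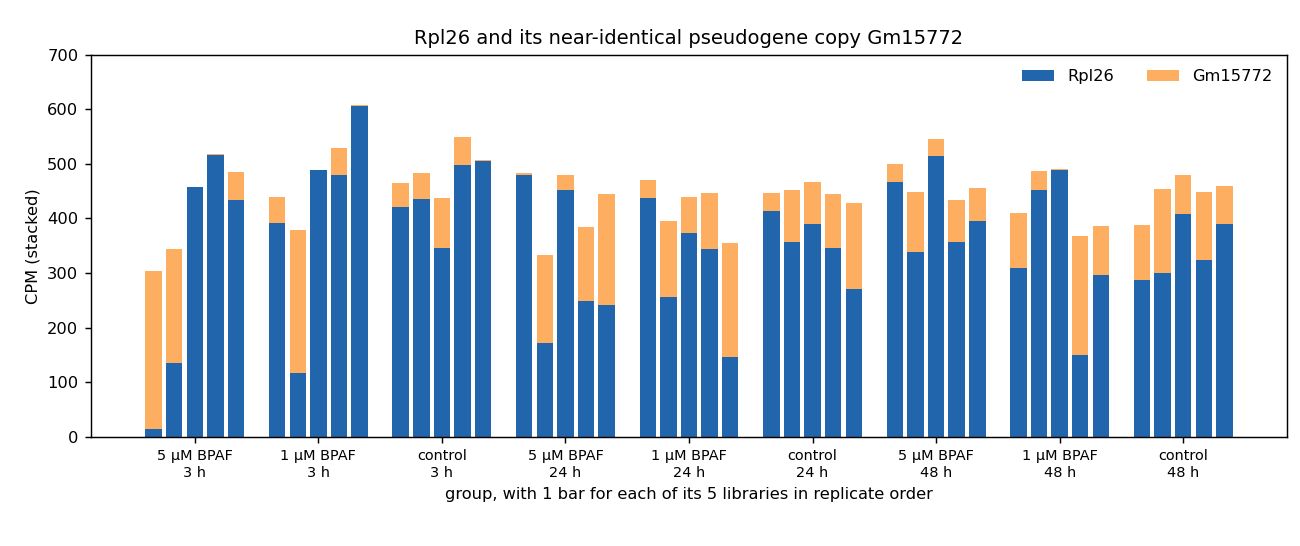
CPM of Rpl26 (blue) and of its pseudogene copy Gm15772 (orange), stacked, with a bar for each of the 45 libraries in 9 groups. The blue part changes from 13.7 to 605 CPM between libraries, while the stacked total stays between 303 and 608 CPM.

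Rpsa and the pseudogene Rpsa-ps10 behaved in the same way. Rpsa lies on chromosome 9, and Rpsa-ps10 at chr3:150072658-150073542 (−) is 99.3% identical to its coding sequence, with 6 differing bases. At 3 h Rpsa had 1222, 1464, 1402, 1093 and 847.3 CPM with 5 µM BPAF and 995.7, 1676, 1553, 1395 and 972.7 CPM with 1 µM BPAF, against 1079, 1139, 772.4, 1318 and 847.0 CPM in control cultures, and all groups overlapped. The deviations of gene and copy had opposite signs in 36 of 45 libraries, and the SD between replicates was 0.32 on the log2 scale for Rpsa, 1.19 for the copy and 0.13 for the sum. Rps2 and its pseudogene Rps2-ps10 were unlike these, with opposite signs in 15 of 45 libraries and SDs of 0.15 for Rps2, 0.52 for the copy and 0.33 for the sum.

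Such copies surround nearly the whole family. A search of 13583 annotated pseudogenes found 1010 copies with at least 90% identity over at least 50% of a coding sequence, for 74 of the 76 genes. The median gene had 9.5 copies and Rpl7a had the most, 83. For 26 genes every stretch of 50 coding bases occurs unchanged in a copy. Of the copies, 696 were listed in the deposited tables, and their mean levels summed to 1946 CPM, which is 4.39% of the 44292 CPM summed over the 76 genes. For 11 genes the copies summed to more than 10% of the gene's own level. The copies of Rps2 summed to 571 CPM, against 297 CPM for Rps2 itself, and those of Rpl34, named after its value was seen, to 102 CPM, against 112 CPM. How reads that fit both a gene and a copy were counted is not given in the sources used here.

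Rpl35a, the gene with the largest rise over time, was also the second most variable between replicates, with an SD of 0.54 on the log2 scale. It lies at chr16:33056453-33060189 (+), and 234 bases lie between its start and that of Iqcg at chr16:33012683-33056218 (−), so the genes stand head to head. Iqcg encodes an IQ domain protein of motile cilia. In control cultures at 48 h Iqcg had 4.47, 3.98, 5.03, 4.05 and 3.59 CPM, against 2.33, 1.66, 5.10, 1.99 and 4.79 CPM at 3 h. The 2 control libraries of 3 h with high Iqcg were the 2 with high Rpl35a. The deviations of the 2 genes from their group means had the same sign in 37 of 45 libraries. The neighbour was chosen after values were seen, and what the 2 genes share was not tested.

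Rpl24, the 60S protein named for the belly spot and tail mouse, was too scarce in these tables for small changes to be seen. It had 1.52, 1.51, 2.08, 1.91 and 1.07 CPM with 5 µM BPAF and 2.23, 2.16, 2.23, 2.14 and 2.51 CPM with 1 µM BPAF at 3 h, against 1.88, 1.77, 2.07, 2.35 and 1.49 CPM in control cultures. All 1 µM libraries lay above all 5 µM libraries, also without 1 µM replicate 5, and both overlapped the control. The fold change of 5 µM BPAF over control was -0.23, with a 95% interval from -0.76 to 0.30 on the log2 scale, so a change of that size was not detectable at this depth.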

How the data were processed

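Each of the 9 deposited tables holds 10 libraries of 2 groups. The columns are raw read counts, a normalized signal, FPKM, and the authors' log2 fold change with its p-value and adjusted p-value, per the file headers. That deposited signal is a count over a library's size factor (largest relative deviation 4.99e-10). The submitters' processing notes name CASAVA 1.8, STAR 2.5, HTSeq 0.6.1, DESeq2 and build mm10. Their strand setting and their handling of reads with several matches are not given in the sources used here.

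Counts were joined by gene identifier with 0 mismatches between tables. A gene absent from a table was read as 0 counts (11.7% of gene and library combinations, none of them among the 76 genes). Each of 12 comparisons of a pair of groups, and 3 of the difference of a 5 µM effect between times, was fitted on all genes in edgeR 4.0.16 under R 4.3.3. The fits used TMM scaling, filterByExpr (minimum count 10, minimum total 15), the quasi-likelihood F-test and Benjamini-Hochberg adjustment, with calls at an adjusted p under 0.05. All 76 genes passed the filter in every comparison. The SE is the size of the log2 fold change divided by the square root of F, and intervals are 95%. The authors' FPKM and normalized signal entered no result. Levels were ranked for naming by CPM per kilobase of the gene length in the files, in place of the FPKM first planned. The fits were tested on simulated data. Copies were found with blastn 2.17.0 on GENCODE M21 sequences of GRCm38, and start sites come from RefSeq.

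The members and lists were chosen with earlier results of these data known. Members are named by a rule: 14 anchor members, up to 8 called members per direction, the 3 with the highest and the 3 with the lowest level, and the 3 highest and 3 lowest fold changes with 5 µM BPAF at each time. Of these, 14 were chosen, after their values were seen, to be given per library. Rps14, Rps26, Rpl35, Rpl4 and the genes singled out for copies, overlaps or length were also named after their values were seen. Replicate numbers were checked for pairing, and in 1 comparison, 1 µM BPAF against control at 24 h, every pair of same-numbered libraries correlated in its deviations above 0.1 (0.115 to 0.43). There the fit with the replicate block also called 0 members. Alternatives were DESeq2 1.42.0, limma-voom (limma 3.58.1), other scaling, no filter, copies added to members, a Y-linked covariate, a replicate block, a fit on all libraries, a threshold of 0.01, and each library left out in turn. The alternatives with copies added, and without the 24 h libraries highest in haemoglobin, were chosen after seeing the data.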

Additional observations from a re-analysis of the deposited data

Results flagged for a closer look

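For the 14 genes given per library and the share of reads in all 76, 135 groups of 5 libraries were examined for a highest or lowest library far from the others, and 5 stood out by Dixon's criterion (critical value 0.71), where chance gives about 1 in 20. Rpl24 reached 2.51 CPM in 1 µM 3 h replicate 5, the library whose treatment label conflicts with its title. Rpl23 reached 673 CPM in 5 µM 24 h replicate 5, the library in which 74 of the 76 genes were above their group mean. Rpl3 reached 1191 CPM in control 3 h replicate 4, and Rpl39 reached 109 CPM in control 3 h replicate 5. Rpl35a reached 196 CPM in 1 µM 48 h replicate 4. All 5 were the highest library of their group.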

How the results depend on the processing

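All medians of the 76 genes moved by less than the spread between replicates under every alternative and without each library, and no fold change that had been called reversed its sign, although the medians nearest 0 took either sign. Counts of called genes moved more. The shares of all genes called in these same fits are not given, so whether the calls of other genes moved alike is not shown here. With 5 µM BPAF against control at 3 h (0 called), DESeq2 called 1, and the fits with no low-count filter and with the replicate block called 2 each. At 24 h (0 called) a Y-linked covariate gave 2. At 48 h (0 called) no filter gave 1 and the replicate block 9, of which 8 were lower. With 5 µM against 1 µM BPAF (0 called) the replicate block gave 3 at 3 h and 1 at 48 h, the block by library code gave 3 at 48 h, and DESeq2 gave 1 at 48 h. In these comparisons not every pair of same-numbered libraries correlated above 0.1 (4 of 5 did for 5 µM against control at 48 h), although for 5 µM against 1 µM and 1 µM against control at 3 h each library correlated best with its own number. For control cultures at 24 h over 3 h (11 called), the 0.01 threshold and the fit on all libraries gave 4 each. For 48 h over 24 h (2 called), the 0.01 threshold, the Y-linked covariate and the fit on all libraries gave 1 each, DESeq2 6 and the replicate block 7. For 48 h over 3 h (8 called), the 0.01 threshold gave 3, and the Y-linked covariate and the replicate block gave 5 each. The cause was not tested, except that a stricter threshold calls fewer genes by construction. Leaving out 1 library gave 0 to 2 calls with 5 µM BPAF at 3 h, 0 to 3 at 48 h and 0 to 1 for 5 µM against 1 µM at 48 h. It gave 7 to 19 calls for control 24 h over 3 h, 1 to 9 for 48 h over 24 h and 5 to 15 for 48 h over 3 h, and 0 in every other comparison. Among single genes, 11215 values kept their side of the threshold, 62 newly passed and 69 no longer passed. Rpl14 and Rpl32 at 24 h over 3 h, and Rpl21 at 48 h over 24 h, were lost only in the fit on all libraries. Their edgeR adjusted p there was 0.101, 0.0941 and 0.0994. Rps16 at 24 h over 3 h was lost in that fit (edgeR adjusted p = 0.0662) and with the Y-linked covariate (0.0695). Rpl24 and Rps10 are limited by low counts.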
